A study of Arabidopsis thaliana with 2 samples.

Results

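The DNA damage checkpoint senses broken or single-stranded DNA and holds the cell cycle while repair proceeds. 7 of its Arabidopsis thaliana genes are described here: ATM (AT3G48190) and ATR (AT5G40820), the kinases at its head; ATRIP (AT5G45610), the partner of ATR; RAD9 (AT3G05480) and HUS1 (AT1G52530), listed for the checkpoint clamp; RAD17 (AT5G66130), for the clamp loader; and WEE1 (AT1G02970), for the effector kinase. They were chosen by locus, and a gene was counted as having a SOG1 peak where the authors' list of SOG1-Myc ChIP peaks names that locus, whatever the strength of the peak. Of the 7 genes, 2 were named, RAD17 and WEE1, each for 1 of the 778 peaks. ATM, ATR, ATRIP, RAD9 and HUS1 were not named for any peak.

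SOG1 (SUPPRESSOR OF GAMMA RESPONSE 1) is the plant transcription factor that carries the damage signal from the ATM and ATR kinases to its target genes. ATM responds mainly to double-strand breaks and ATR, held on DNA by ATRIP, to stretches of single-stranded DNA. RAD17, together with the small subunits of replication factor C (RFC), places a ring-shaped clamp containing RAD9 and HUS1 on damaged DNA. WEE1 adds an inhibitory phosphate to cyclin-dependent kinases and so delays cell division. The gene table used here calls AT5G45610 SUV2, the Arabidopsis ATRIP homologue, and gives no symbol for AT1G52530.

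Plants were 2 weeks old. Those of the first library were Col-0 with a SOG1-Myc transgene (ProSOG:SOG1-Myc, driven by the promoter of SOG1 itself), kept for 2 h in 15 µM zeocin, which causes DNA breaks, before chromatin was pulled down by its Myc tag. A mock library was made from Col-0 without the transgene and with the same anti-Myc antibody. Its treatment label says mock, but the protocol text given with it speaks of zeocin, so whether these plants were treated is uncertain; the label was followed. Whole plants were used, so cell types are mixed, and the tagged protein was made in wild-type plants that keep their own SOG1 gene. Each group has 1 library, and only the peak list of the tagged library was analysed. There is therefore no replicate error and no test, and a tagged library without zeocin was not analysed here, so the effect of the drug cannot be told apart from binding without it.

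The authors' list gives 78249 reads in peaks, and the total depth of the library is unknown. Over the 778 peaks the median fold enrichment was 4.33 (range 2.49 to 23.0), the median read count 75 (39 to 572) and the median length 837 bp (472 to 3767). Fold enrichment, score, read count and false discovery rate (FDR) are the authors' values. Neither the numerator nor the denominator of the fold is stated. The peaks of RAD17 and WEE1 held 479 reads together, or 0.612% of the reads in peaks.

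The steps with and without a peak divided as follows. The clamp loader gene RAD17 and the effector kinase gene WEE1 had peaks of high fold, whereas none was listed for the 3 genes of the apical kinases and their partner (ATM, ATR and ATRIP) or for the clamp genes RAD9 and HUS1. The 2 of 7 named genes amount to 28.6%, and the authors named 4.99% of the 27444 protein-coding loci, or 3.91% of the 37899 nuclear loci of the table. Both genes stayed in the list when only the 389 strongest peaks by fold were kept, which named 2.51% of protein-coding loci. They also stayed with only the 194 strongest, which named 1.3%. Both outcomes follow from the ranks of their peaks by fold, 10 and 24, and are no separate check. At peaks that name a single locus, 0 of the 7 genes were named, beside 0.66% of protein-coding loci. That 0 holds by construction, since the peaks of RAD17 and WEE1 each name several loci. The genes were chosen with the list's results known, so the share is a description of these 7 genes. The lowest fold and the lowest read count in the list, 2.49 and 39, show how weak a listed peak can be, but without the depth a gene with no peak cannot be told apart from one below detection.

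RAD17, the loader gene, had a peak on chromosome 5 at 26433459 to 26434678 (TAIR10). The peak held 241 reads (exact 95% Poisson interval 212 to 273, counting error only) over a stated length of 1220 bp. Its fold enrichment was 13.7, its Decibel Score 554 and its FDR 0.16. By fold it ranked 10 of 778, within the top 1.29% of the list, at 3.16 times the list's median fold.

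WEE1, the effector kinase gene, had a peak on chromosome 1 at 672560 to 673756. It held 238 reads (exact 95% Poisson interval 209 to 270) over 1197 bp, with a fold enrichment of 9.93, a Decibel Score of 385 and an FDR of 0.178. It ranked 24 by fold, within the top 3.08%, at 2.29 times the median fold. The FDR did not set these peaks apart in the same way. Over the list it ran from 0.116 to 1, with a median of 0.147 and an upper quartile of 0.150. The values of RAD17 (0.16) and WEE1 (0.178) both lay above that quartile. The FDR did not rise steadily as the score fell. The peak ranked 6 by score (1454) had an FDR of 0.333, and one ranked 110 (181) had 0.136. The FDR therefore does not order the peaks of this list by strength. It remains a limit on all of them, since no listed peak, RAD17 and WEE1 included, had an FDR below 0.116.

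**Figure D1:**
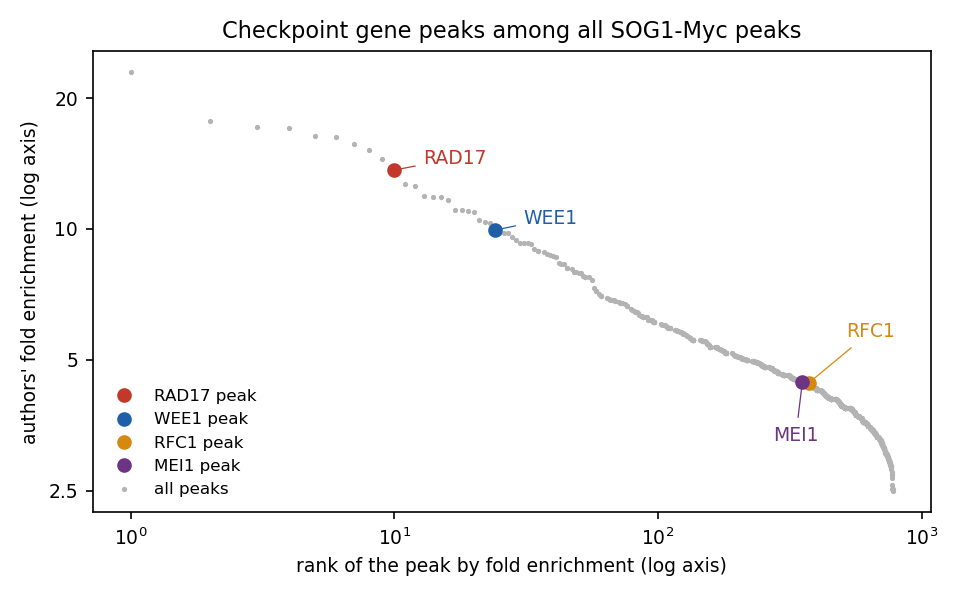
Authors' fold enrichment of each of the 778 peaks (grey points) against its rank, both on log axes, with the peaks of RAD17, WEE1, RFC1 and MEI1 in colour. RAD17 at rank 10 and WEE1 at rank 24 lie on the steep upper part of the curve, and MEI1 and RFC1 at ranks 353 and 374 lie close to the median fold of 4.33.

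The RAD17 and WEE1 peaks were almost the same in reads and length, although their folds differed. RAD17 had 198 reads per kb of peak (exact 95% interval 173 to 224) and WEE1 had 199 (174 to 226), against a median of 88.6 over the list. These densities could not be told apart at this depth, and they ranked 13 and 12 in the list. The fold enrichment of RAD17 was 1.38 times that of WEE1 and its score 1.44 times, while its reads were 1.01 times and its length 1.02 times those of WEE1. The read count divided by the fold was 17.6 for RAD17 and 24.0 for WEE1. This ratio is not a background count, because the fold does not follow from the read count of a peak alone. Peaks that share a fold of 5.548 held from 54 to 126 reads. No source used here says what the authors divided, or by what. By read count alone the peaks ranked 43 and 48, since longer peaks hold more reads.

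**Figure D2:**
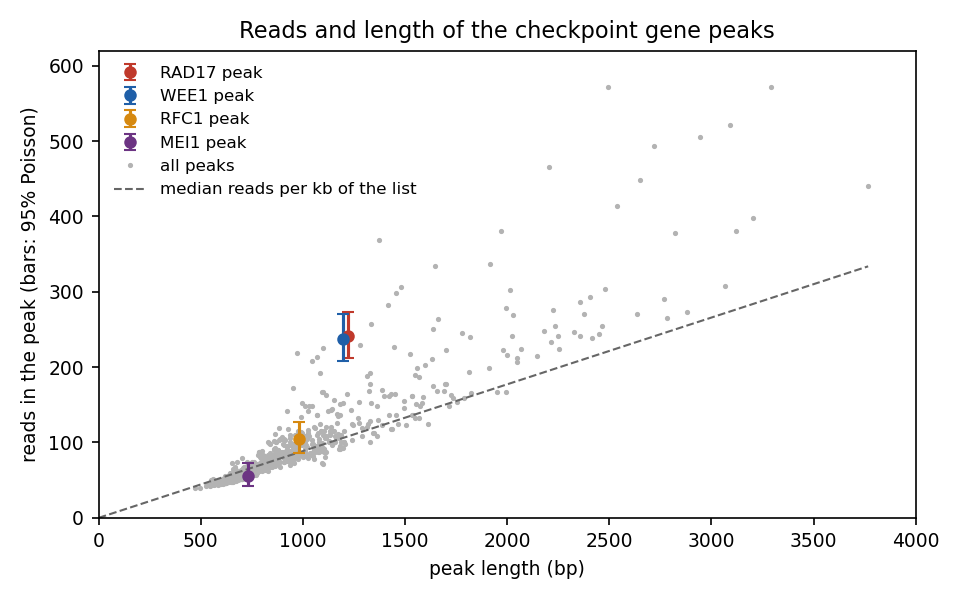
Reads in each peak against its stated length in bp, for RAD17, WEE1, RFC1 and MEI1 in colour (bars, exact 95% Poisson intervals) and for all 778 peaks in grey, with a dashed line at the list's median of 88.6 reads per kb. RAD17 (241 reads) and WEE1 (238 reads) overlap and lie well above the line, and RFC1 (105 reads) and MEI1 (56 reads) lie near it.

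The peaks differed in shape and in the genes they name. The summit of the RAD17 peak lay 423 bp from the peak start, if the summit column is read as an offset, which is 34.7% of the length. That of WEE1 lay at 684 bp, or 57.1%, and the median over the list was 51.2%. The RAD17 peak names 2 loci, RAD17 and its neighbour AT5G66120, as 302 of the 778 peaks do. The WEE1 peak names 4 loci, WEE1, AT1G02960, AT1G02965 and the cullin gene CUL2 (AT1G02980), and 66 peaks (8.48%) name 4 or more. Neither peak names its checkpoint gene alone, so the list does not say which of the neighbours is the target.

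The surroundings of the peaks differed too. The RAD17 peak was followed on chromosome 5 by a peak at 26436711 to 26438098, with 123 reads and a fold of 4.44, and then by one at 26438220 to 26439068, with 80 reads and a fold of 4.12. The fold of the RAD17 peak was 3.08 and 3.31 times theirs. The gap from the RAD17 peak to the first of them was 2032 bp, and their summits lay 3859 and 4714 bp from its summit. The 3 peaks held 444 reads over 5610 bp, whereas on the other side the next peak was 291861 bp away.

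The WEE1 peak stood alone. The nearest peaks on chromosome 1 were 173393 bp before it, with 57 reads and a fold of 4.25 near NIMIN1, and 177779 bp after it, with 199 reads and a fold of 6.04. Over all peaks the median distance to the nearest other peak was 36697 bp. For 7.84% of the peaks the nearest other peak was as far away as for WEE1 or farther, and for 13.0% it was as close as for RAD17 or closer. A second peak within 5000 bp was listed for 157 of the 778 peaks.

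**Figure D3:**
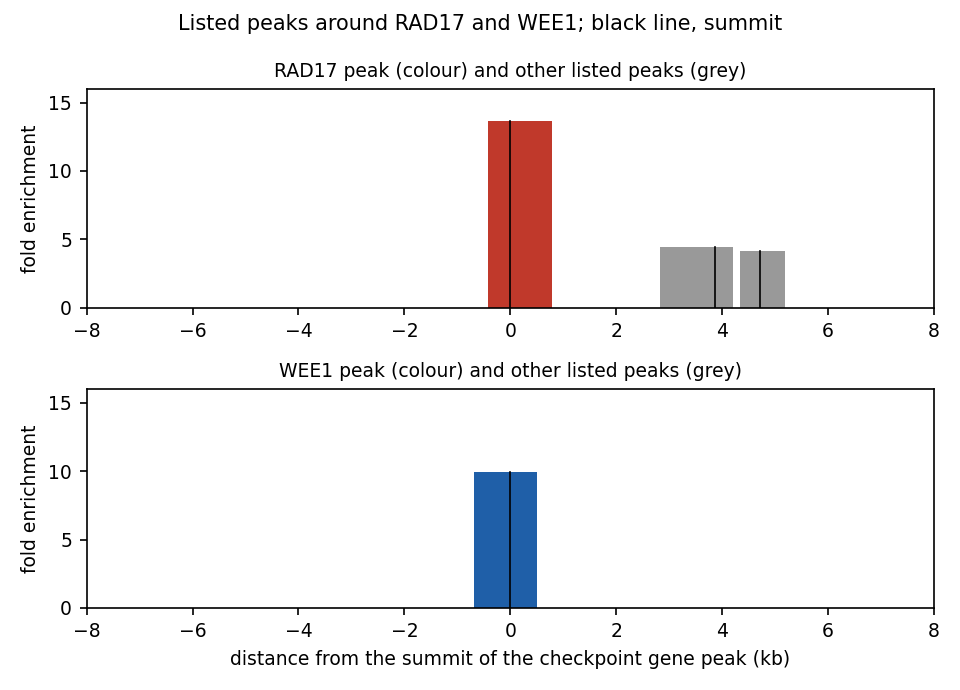
Listed peaks within 8 kb of the RAD17 summit (top) and the WEE1 summit (bottom), drawn to scale by distance from that summit in kb, with bar height the authors' fold enrichment and a black line at each summit. RAD17 at 13.7-fold is followed by peaks of 4.44-fold and 4.12-fold on one side, and WEE1 at 9.93-fold has no other peak in the window.

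The gene names around RAD17 did not follow the gene order. In the table RAD17 lies between AT5G66120 and the proteasome subunit gene PAD2 (AT5G66140). Both weaker peaks name AT5G66120 and PAD2 and leave out RAD17, which lies between them. AT5G66120 was thus named for 3 peaks, as only 3 of the 1513 named loci were, and RAD17 for 1. Of 535 peaks that name 2 or more loci of the table, 139 (26.0%) left a protein-coding locus between the named ones unnamed, so a gene can lie next to a listed peak without being named. Of the 7 checkpoint genes, RAD17 was the only one passed over in this way, and it was so at 2 peaks. None of the 5 genes without a peak lay between loci named for 1 peak.

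Among the 5 genes without a peak, ATR lay closest to a named locus. In the gene order it lay 2 steps from SYN2 (AT5G40840), which the table calls an SCC1 homologue and RAD21.1, a subunit of the cohesin ring that holds sister chromatids together. The SYN2 peak on chromosome 5 at 16362741 to 16364964 held 276 reads (exact 95% Poisson interval 244 to 311) over 2223 bp, with a fold of 7.94 and rank 50. It names SYN2 and UPM1 (AT5G40850), which lie on the side away from ATR. The locus between ATR and SYN2, AT5G40830, was not named either. Of the 26075 protein-coding loci without a peak, 7.99% lay as close to a named locus as ATR or closer.

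The other genes without a peak lay farther from any named locus, and the peaks there were of low fold. ATRIP was 15 steps from AT5G45740, whose peak had 47 reads and a fold of 3.81. The clamp gene RAD9 was 24 steps from AT3G05320 (86 reads, fold 3.49), and ATM 35 steps from BT2 (50 reads, fold 3.91). HUS1 was 86 steps from AT1G51890 (60 reads, fold 3.57), and 93.9% of protein-coding loci without a peak were as close or closer. The folds at these 4 loci, from 3.49 to 3.91, all lay below the list's median of 4.33. By read count, however, the AT3G05320 peak (86 reads) lay above the list's median of 75. The median over the 5 genes was 24 steps (range 2 to 86), against 19 (1 to 439) over all protein-coding loci without a peak.

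**Figure D4:**
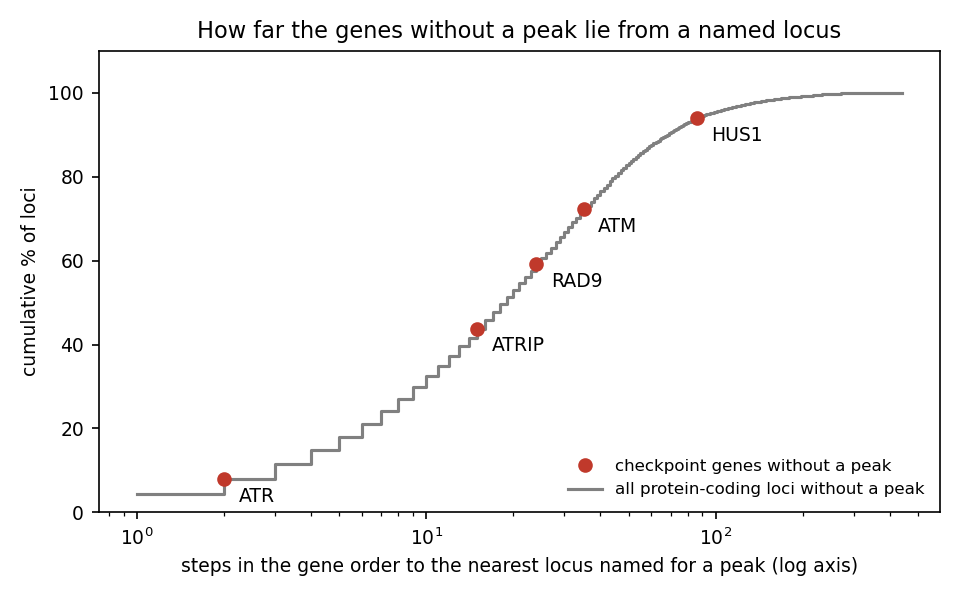
Number of steps in the gene order to the nearest locus named for a peak, on a log axis, for the 5 checkpoint genes without a peak (red) and as a cumulative percentage for all 26075 protein-coding loci without one (grey line). ATR lies 2 steps from a named locus and HUS1 86 steps, and the 5 genes stand at 7.99% to 93.9% of the grey line.

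Partner genes of the checkpoint were looked up in 4 lists with 22 loci, and 2 of them (9.09%) were named, beside 4.99% of protein-coding loci. These lists too were chosen with earlier results of these data known. With only 2 genes named, the share is a description of these loci. Among the 8 clamp and loader partners, RFC1 (AT5G22010) was named. RFC1 is the large subunit of the loader used in replication, the place that RAD17 takes in the checkpoint loader. Its peak on chromosome 5 at 7286796 to 7287777 held 105 reads (exact 95% Poisson interval 85.9 to 127) over 982 bp. The fold was 4.43 and the rank 374, and RFC1 was the only gene named.

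The small RFC subunits, which both loaders share, had no peak in any of 4 genes (AT1G63160, AT1G77470, AT1G21690 and AT5G27740). CTF18 (AT1G04730), the large subunit of a further loader, was not named, nor were AT4G17760 and AT1G77620, which were listed with this group but carry no symbol in the table. Among the 11 clamp and loader genes counted with RAD9, HUS1 and RAD17, the peaks were thus those of RAD17, with 241 reads and 198 per kb, and RFC1, with 105 reads and 107 per kb. The read intervals of RAD17 (212 to 273) and RFC1 (85.9 to 127) do not overlap, although they cover counting error only.

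Of 6 genes for kinase outputs and partners, MEI1 (AT1G77320), a meiosis gene related to the human checkpoint mediator TopBP1, was named. Its peak on chromosome 1, at 29056157 to 29056887, names MEI1 alone. The peak held 56 reads (exact 95% Poisson interval 42.3 to 72.7) over 731 bp. Its fold of 4.44 (rank 353) lay just above the list's median of 4.33, whereas its 76.6 reads per kb lay below the median of 88.6. SOG1 (AT1G25580), a target of ATM, the kinase gene TSL, the WEE1 substrate CDKA;1, PRL1 and TIM were not named. SOG1 lay 2 steps from the named locus TEM1. The small RFC subunit gene AT5G27740 was the other partner locus as close, at 2 steps from AT5G27760, whose peak had 62 reads and a fold of 3.44.

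The 3 genes of the MRN complex, MRE11, RAD50 and NBS1, which detects double-strand breaks and recruits ATM, had no peak. Nor had the H2AX genes HTA3 (AT1G54690) and HTA5 (AT1G08880), whose histone is phosphorylated by these kinases. No peak named the 3 loci listed as kin of ATM and ATR, which are TOR (AT1G50030), the growth-regulating kinase of the same family, AT2G17930 and AT4G36080. Over the 20 partner loci without a peak the median was 19 steps to a named locus (range 2 to 97).

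By fold, just above the RAD17 peak stood a peak of 15.2-fold with 448 reads that names 5 loci, AT5G07590, AT5G07600, AT5G07610, AT5G07625 and AT5G07630, and the peak of RPA70C (AT5G45400), a subunit of the protein that coats single-stranded DNA, at 14.5-fold with 282 reads. Just below stood a 12.7-fold peak with 414 reads that names KRP6 (AT3G19150), an inhibitor of cyclin-dependent kinases, DNF and RBP47B. It was followed by a peak of 12.6-fold with 173 reads near TPR3, AGL101 and AT5G27037. RPA70C, with 199 reads per kb, was the peak of these 4 most like RAD17 in density.

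Around WEE1 stood a peak of 10.4-fold with 153 reads near AT1G32550 and AT1G32570, and one of 10.3-fold with 398 reads near TK1a (AT3G07800), a thymidine kinase that supplies nucleotides, and AT3G07810. Below it came AT5G42210, at 9.80-fold with 148 reads, and then the 9.79-fold peak, with 303 reads, of AT2G31320, a poly(ADP-ribose) polymerase gene that the list calls PARP2, with AT2G31335 and EMB1381. Reads per kb at these 4 peaks ran from 124 to 153, all below the 199 of WEE1.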

How the data were processed

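One deposited peak list was analysed, that of the SOG1-Myc zeocin library; the mock library's values were not analysed here. CASAVA 1.8.2 and TAIR10 are named in the submitters' processing notes. The alignment, the peak calling with its control and thresholds, and the assignment of genes were not given in the sources used here. Per the file headers, each peak carries a read count by the authors (not scaled to depth), a fold enrichment (a ratio), a Decibel Score (a score whose formula is not stated) and an FDR (on the scale of a q-value).

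Lines of the list (1645) that share a chromosome, start and end were joined, which left 778 peaks (Python 3.11.15, pandas 2.3.3). The deposited length counts both end bases at 517 peaks and only 1 of them at 261, an uncertainty of 1 bp. The locus is the longest transcript before the dot. Ranks run from the highest value. Exact Poisson intervals cover counting error only, since reads may hold PCR copies.

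Names, classes and gene order came from a TAIR10.1 gene table, whose positions are not printed. It matched 1483 of the 1513 named identifiers (98.0%). A distance of 1 step means the next locus of any class. The 7 genes and the 4 partner lists were chosen with earlier results of these data known. The genes named are these, every locus on their peaks, listed partners with a peak, the 2 peaks above and below each by fold, and the nearest named locus of each gene without a peak. Other loci (at neighbouring peaks, TEM1 and AT5G27760) were added after their values were seen. No sequence of the build was used, so the planned search for the SOG1 site in promoters was not run. The counting and ranking steps were tested on simulated data.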

Additional observations from a re-analysis of the deposited data

How the results depend on the processing

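RAD17 and WEE1 were both still named among the 389 and the 194 strongest peaks by fold and among the 389 strongest by score. The ranks given below fix this outcome in advance, so it is no separate check. With only peaks that name 1 locus, 0 of the 7 checkpoint genes were named, by construction, since both peaks name several loci. RFC1 and MEI1 were named at such peaks. RAD17 ranked 10 by fold, 25 by score, 43 by reads and 13 by reads per kb. WEE1 ranked 24 by fold, 45 by score, 48 by reads and 12 by reads per kb, so that WEE1 stood ahead of RAD17 only by reads per kb. The background share was 3.91% of all nuclear loci and 4.99% of protein-coding loci. Counting only protein-coding loci in the gene order, an alternative chosen after seeing the data, gave 2 steps for ATR, 13 for ATRIP, 20 for RAD9, 26 for ATM and 68 for HUS1, in the same order. The promoter search for the SOG1 site and its alternatives were not run, for want of a sequence. No paired analysis was possible because each group has 1 library. The depth of the library is unknown, which limits every statement on a gene without a peak.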
